A study of Balaenoptera physalus with 6 samples.

Results

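CpG sites that lie in the promoter of a single gene and are highly methylated in fin whale skin were taken from the authors' list of differences between high and low contaminant load. Sites were chosen by measured level: a site was included when its promoter annotation held exactly 1 gene name and its methylation level averaged 60% or more over the 6 samples, which left 722 of 2585 single-gene promoter sites and of 32682 listed CpG sites in all. The 722 sites carried 509 gene names on 165 scaffolds. Skin of the Mediterranean fin whale, Balaenoptera physalus, was read by reduced representation bisulfite sequencing, in which cutting with MspI favours CpG-rich fragments and bisulfite converts unmethylated cytosines. The high OC group held 3 skin samples with a high concentration of organochlorine contaminants and the low OC group 3 with a low concentration, and the study asked whether methylation goes with contaminant load. Titles of all high OC samples began with BPT and those of all low OC samples with BPL, so whatever these prefixes mark cannot be told apart from contaminant load. The labels give neither age, sex nor treatment of the whales, and they do not state whether each sample is another whale, so a p-value measures only the spread between these samples. The extent of the annotated promoters and the assembly of the scaffolds are not stated in the sources used here. The labels name skin tissue and no sorting of cells.

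A gene's promoter is the stretch around its start where transcription begins. In mammals most promoters rich in CpG are kept free of methylation, while CpG-poor promoters and those of genes silenced in a tissue, such as germline genes in body cells, are often methylated. A methylated promoter is usually associated with a silent gene, but expression was not measured in these samples.

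Both the listing by the authors, for a difference between these same samples, and the choice by mean level used the values described here. Levels and differences at the 722 sites are therefore descriptions with no test. The values at the threshold were as follows. Just inside, with a mean of 60%, a site of LOC103012154 averaged 44.7% (high OC) and 75.3% (low OC), and a site of RHCG, an ammonium transporter, had 73.0% and 47.0%. Just outside, at 59.8%, PRDM16, a regulator of brown fat, had 44.7% and 75%, and COLCA2 had 74.0% and 45.7%.

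Of the 722 sites, 440 (60.9%) were higher and 282 were lower in high OC skin. Over all 32682 listed CpG sites, 50.8% were higher. For the higher sites the high OC samples averaged 90.4%, 91.2% and 89.5% and the low OC samples 66.7%, 67.7% and 69.5%, that is 90.3% ± 0.846 against 68.0% ± 1.42 (SD, 3 samples each). For the lower sites the averages were 71.2%, 71.0% and 72.5% against 91.4%, 91.9% and 91.4%, that is 71.6% ± 0.811 against 91.6% ± 0.303. The usual pattern was thus a nearly full level in the upper group and a partial level in the other. The choice partly sets this pattern, since it asks for a mean of 60% or more and a listed difference of at least 10 points. The upper group averaged 90% or more at 435 sites (60.2%), and all its 3 samples were listed at 100% at 78 sites for high OC and at 77 for low OC. A group mean under 50% was less common, at 22 sites for high OC and at 46 for low OC. Medians of the within-group SD were 5.0 points in the upper and 6.11 points in the lower group.

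Taken over all 722 sites, the means of the high OC samples were 82.9%, 83.3% and 82.8% and those of the low OC samples 76.4%, 77.2% and 78.1%. The groups did not overlap, with a gap of 5.78 points. The gap rests on the same differences that the sites were listed for and is no separate result. With a sample left out of the choice and the means, the gap was 3.61, 3.46 and 3.79 points without high OC replicate 1, 2 and 3, and 7.09, 7.23 and 7.65 points without low OC replicate 1, 2 and 3. High OC replicate 2 had the most sites at exactly 100%, with 194, against 156 in each of the other high OC samples and 132 to 134 in low OC. Its median coverage was also the lowest, at 11 reads. The part of depth in that count was not tested.

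**Figure D1:**
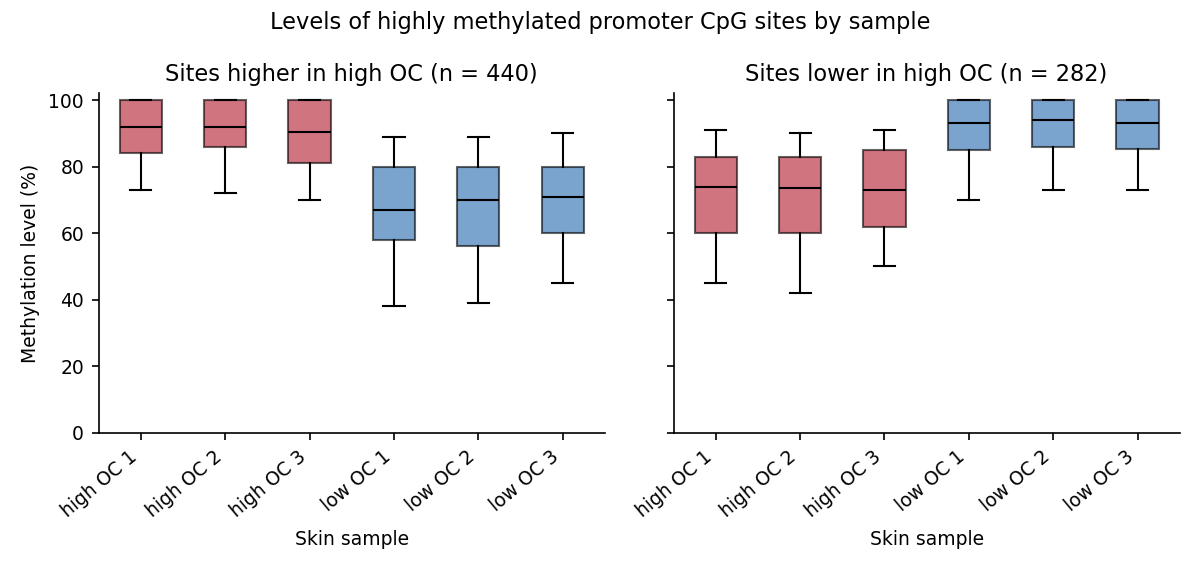
Methylation level in percent of the 440 sites higher (left) and the 282 sites lower (right) in high OC skin, in each of the 6 samples. Boxes span the quartiles, lines are medians and whiskers run from the 5th to the 95th percentile of sites. In each panel the upper group has its upper quartile at 100% in all 3 samples.

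Groups did not overlap at 720 of the 722 sites, beside 99.5% of all listed CpG sites, which were chosen by the authors for their difference. The exceptions were a site of DUSP8, a phosphatase of MAP kinases, with 91%, 80% and 82% against 91%, 100% and 100%, and a site of the channel gene PANX2, with 71%, 88% and 73% against 100%, 88% and 100%. The authors' deposited table puts 66 sites (9.14%) into its strongly different class (33 points or more), 44 higher and 22 lower, beside 13.4% of all listed CpG sites. Of listed sites of the same level outside promoters, 5.67% of exon, 9.06% of intron and 10.5% of gene-free sites were in that class. The median absolute difference was 19.3 points, and differences ran from 64.0 points higher to 57.0 points lower. On the analysed stretch of unselected CpG sites, which holds none of the 722, 252 sites averaged 60% or more, and the authors listed 3.17% of them. The stretch held 651 sites in all, not chosen by promoter, and does not stand for promoters elsewhere. Over these 252 sites the high OC samples averaged 87.4%, 90% and 86.6% and the low OC samples 85.6%, 86.5% and 88.6%, so the groups overlapped. The group levels were 88.0% ± 1.79 and 86.9% ± 1.56 (SD, n = 3; exact two-sided permutation p = 0.5, where 3 against 3 cannot go below 0.1).

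The share of higher sites was not the same in every location and level. Listed sites of the same level outside promoters were higher at 47.7%, that is at 52.0% of 3104 exon sites, 50.5% of 7292 intron sites and 43.4% of 8042 sites with no gene. Single-gene promoter sites under 60% were higher at 68% of 1863 sites. Within the highly methylated promoter sites the share was 67.8% of 149 sites between 60% and 70%, 62.4% of 186 between 70% and 80%, 62.7% of 217 between 80% and 90%, and 51.2% of 170 at 90% and over. At 90% and over, exon sites had 52.5% and intron sites 53.1%. All these sites come from the same contrast, and no test was made of these shares.

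**Figure D2:**
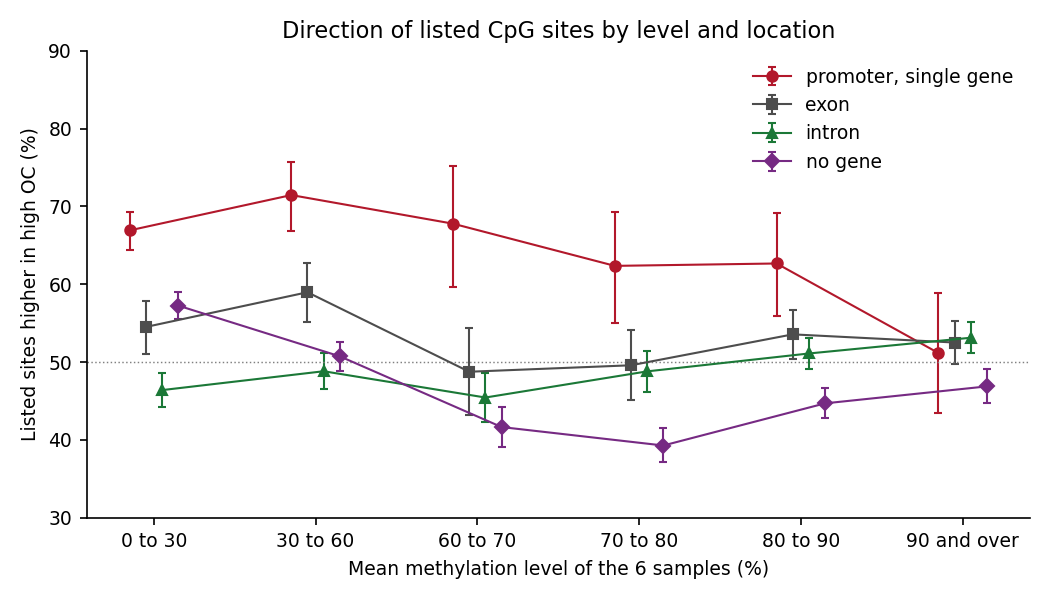
Share of listed CpG sites with the higher level in high OC skin, in percent, by mean level of the 6 samples and by location. Bars are exact 95% intervals over sites, which are not independent and are not replicates. Single-gene promoter sites lie above exon, intron and gene-free sites in every class but that of 90% and over, where the share is 51.2%.

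Some properties of the sites were not used to choose them. Of the 722 sites, 297 (41.1%) also lay in an exon of the same gene and 145 (20.1%) in an intron of it. Among promoter sites between 30% and 60% the exon share was 39.2% and the intron share 23.6%. For those under 30% the shares were 36.6% and 29.2%. Transfer RNA names held 40 sites (5.54%), against 2.83% of the promoter sites between 30% and 60% and 1.53% of those under 30%. Uncharacterised LOC names held 133 (18.4%), against 21.0% between 30% and 60% and 13.8% under 30%. Strands were even, with 354 plus and 368 minus sites. Another listed CpG lay within 100 bases of 285 sites (39.5%), against 57.3% of the promoter sites between 30% and 60% and 32.2% of those under 30%. These are counts over sites with no test.

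Median coverage per sample was 13, 11 and 13 reads in high OC and 12 reads in each low OC sample (exact two-sided permutation p = 1). All samples had at least 10 reads at 244 sites and at least 20 at 53. Over the 4332 levels of single sites in single samples the Wilson 95% interval had a median width of 38.1 points, so that single levels are coarse. Of 112 pairs of neighbouring sites on the same strand up to 100 bases apart, 52 had equal coverage in all 6 samples and 12 had exactly doubled coverage. All 6 coverages were even at 92 sites (12.7%), against 10.6% of the promoter sites between 30% and 60% and 7.64% of those under 30%. Neighbouring sites with equal coverage are counted below as 1 set, and the 722 sites made 669 sets of distinct coverage. The share of higher sites was 67.6% among the 244 sites read at least 10 times in every sample.

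**Figure D3:**
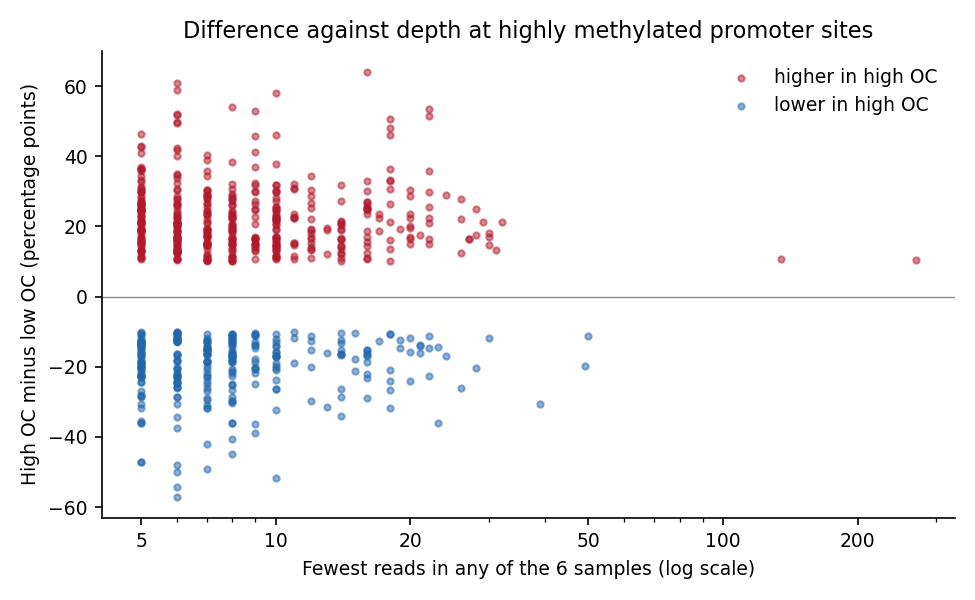
Difference between group means, high OC minus low OC in percentage points, against the fewest reads in any sample (log scale) for the 722 sites. The empty band around 0 is the authors' minimum difference of 10 points. Most sites have fewer than 20 reads in at least 1 sample.

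Most promoters held a single such site: 396 genes had 1, 96 had 2 or 3, and 17 names had at least 4, with 112 sites between them. Of the 113 names with several sites, 56 had only higher sites, 26 only lower and 31 both kinds. By gene, 291 had only higher sites, 187 only lower and 31 both. The promoters with at least 4 sites are described first, and the levels given for a gene are means over its highly methylated listed sites. Where samples are said not to overlap, this follows from the authors' choice, since 99.5% of all listed CpG sites did not.

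OTX1 encodes a homeobox transcription factor of the developing forebrain and inner ear. It had the most sites of any single locus, 15, all higher. Its high OC samples stood at 90.7%, 89.3% and 89.3% and its low OC samples at 26.2%, 41.8% and 65.5%. The high OC samples were nearly alike and the low OC samples far apart, at 89.8% ± 0.770 (SD, n = 3) against 44.5% ± 19.8. At start 4634209 on scaffold NW_006730123_1 the low OC samples had 0%, 30% and 67%, where 0 of 12 reads allows up to 25%, while at 4635192, annotated also as intron, they had 57%, 74% and 70%. At the latter site the high OC samples had 89%, 100% and 80%. The 15 sites made only 10 sets of distinct coverage, with 6 to 45 reads. Some of these sets were multiples of others. Coverage at 4634397 and 4634408 was exactly doubled against that at 4634380, and coverage at 4635163 against that at 4635185.

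LRRC55 encodes an accessory protein of large-conductance potassium channels. It had 12 sites within 264 bases, all lower. The high OC samples averaged 53.6%, 56.1% and 66.7% and the low OC samples 83.2%, 94.6% and 89.8%. That is 58.8% ± 6.95 against 89.2% ± 5.69 (SD, 3 samples a group), with no overlap of samples. The largest gap was at 6873866 on the minus strand of scaffold NW_006733900_1, with 38%, 36% and 71% against 80%, 100% and 100%. The 12 sites made 7 sets of distinct coverage, and coverage at 6873687 was exactly doubled against that at 6873692. A cytosine listed in CHH context, 47 bases past the last of them, had 68.0% over the high OC samples and 94.3% over the low OC samples.

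SOX14, a transcription factor of the developing nervous system, had 4 sites, all higher. The high OC samples averaged 87.0%, 88.8% and 81.2% and the low OC samples 67.5%, 59.8% and 67.0%, without overlap. Its further 4 listed promoter sites, all past the last of these, were higher too, at means of 39.7%, 56.2%, 33.7% and 25.8%. TEX26, a testis-expressed gene, had 5 sites, all higher, at 88.9% ± 3.81 against 60.1% ± 6.90 (SD, 3 samples a group). Its low OC samples stood at 67.6%, 54.0% and 58.8% and its high OC samples at 85%, 92.6% and 89.2%, again without overlap.

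S1PR4, a receptor of lymphocytes for sphingosine 1-phosphate, had high OC samples at 88.0%, 82.5% and 83.2% and low OC samples at 54.0%, 59.5% and 56.0%. This promoter was covered by 9 to 50 reads, and all its sites were higher. Coverage at start 219962, which holds the 50 reads, was exactly doubled against that at 219971, a listed site under the threshold. LTA, the cytokine lymphotoxin alpha, had 94.2%, 97.0% and 97.8% against 81.5%, 75% and 77.2%, all sites higher and all within 58 bases. SIPA1, an inactivator of the small GTPase RAP1, was listed at 100% in each high OC sample at all 4 sites, against 76.5%, 86.0% and 87.5% in low OC, at 6 to 14 reads. In its promoter a CHH site 91 bases past the last CpG site went the other way, with 11.3% in high OC against 63.0% in low OC skin.

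PANX2, a large-pore channel of the pannexin family, had 4 lower sites, with 70%, 82.0% and 77.5% in high OC against 100%, 91.8% and 95.5% in low OC. Its coverage was 15 to 34 reads. ASGR2, a subunit of the hepatic asialoglycoprotein receptor, had 3 higher sites and 1 lower, with 92.9% ± 5.39 against 75.9% ± 6.67 (SD, 3 samples a group). ARHGEF15, a guanine nucleotide exchange factor of blood vessels, had 3 lower sites and 1 higher, at 80% ± 3.36 against 85.5% ± 1.32 (SD, 3 samples a group).

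MFNG, a glycosyltransferase that modifies Notch receptors, had 2 higher and 2 lower sites, and the opposite directions lay side by side. At start 380039 on scaffold NW_006725354_1 the high OC samples had 65%, 56% and 62% and the low OC samples 79%, 73% and 75%. At 380043, a listed site under the threshold with the same coverage in every sample, the high OC samples had 35%, 33% and 46%. All low OC samples were listed at 0%, where the 22 reads of the shallowest allow up to 13.6%. Coverage at both starts was exactly doubled against that at 380024 on the same strand. The limit holds only if each read is a separate count. The direction thus differed between neighbouring CpG sites with equal coverage.

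**Figure D4:**
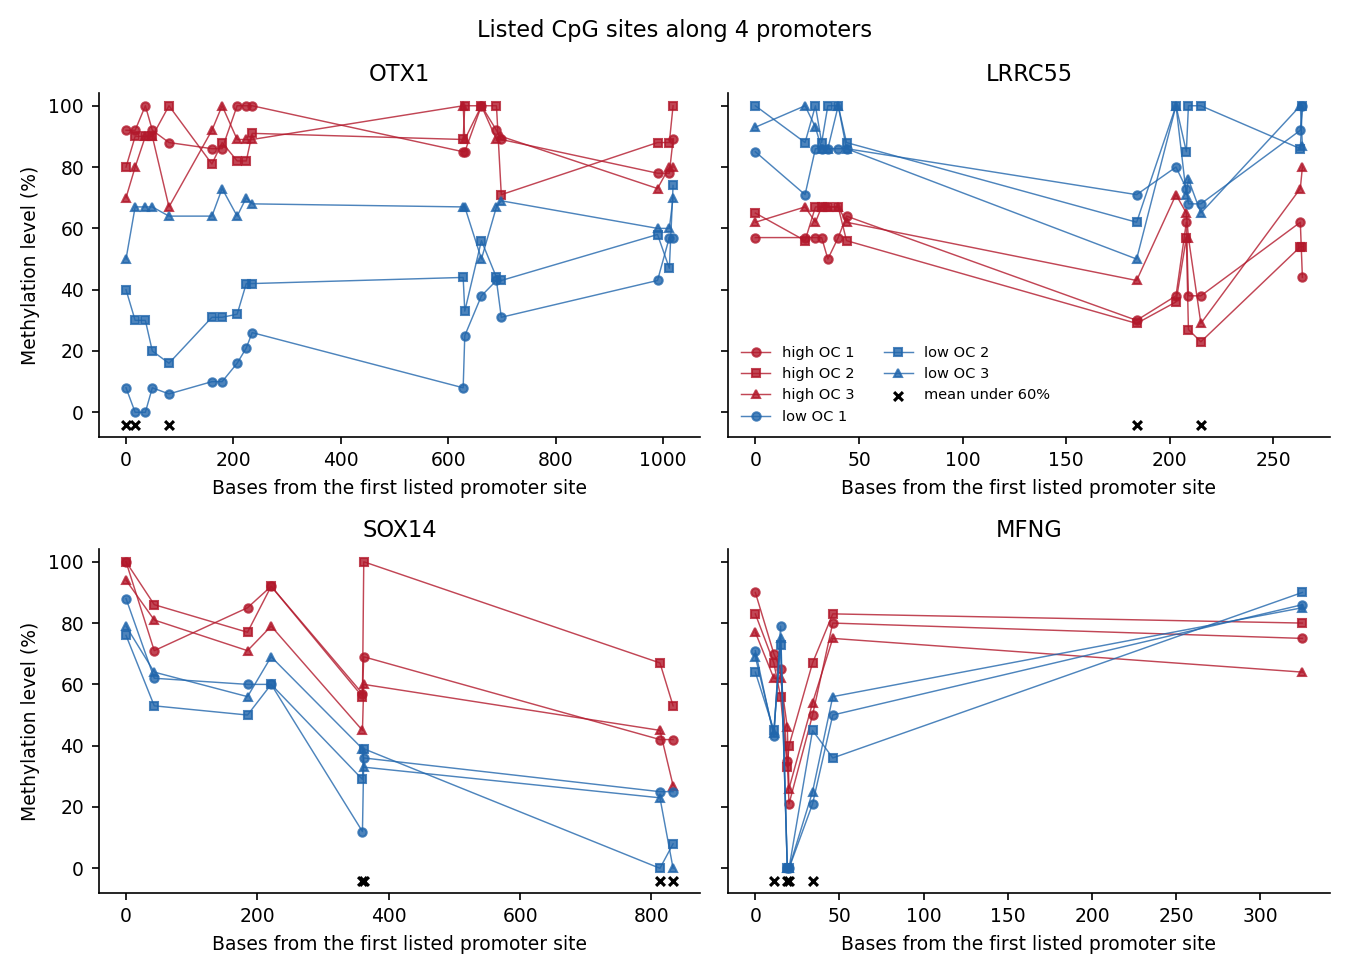
Methylation level in percent of every listed promoter CpG site of OTX1, LRRC55, SOX14 and MFNG, against the distance in bases from the first listed site. Red marks are the 3 high OC and blue marks the 3 low OC samples, and crosses mark sites whose mean is under 60%. High OC lies above low OC along OTX1 and SOX14 and below it along LRRC55, while MFNG crosses.

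Names without a described gene held several sites as well. LOC103010225 had 8, all higher, at 84.5% ± 3.56 against 52.7% ± 4.50 (SD, 3 samples a group), and LOC102998803 had 4, all higher, at 94.8% ± 1.63 against 78.1% ± 1.51 (SD, 3 samples a group). LOC103020747 had 3 higher and 2 lower. Transfer RNA names, which can stand for several copies of a gene, so that reads may be shared, held 20 higher and 20 lower sites. TRNAG-CCC had 7 higher and 10 lower over 11 scaffolds, and TRNAE-UUC 3 higher and 7 lower over 10 scaffolds. TRNAR-UCU lay at a single locus with 4 higher sites, at 86.7% ± 5.99 against 62.9% ± 8.74 (SD, 3 samples a group).

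**Figure D5:**
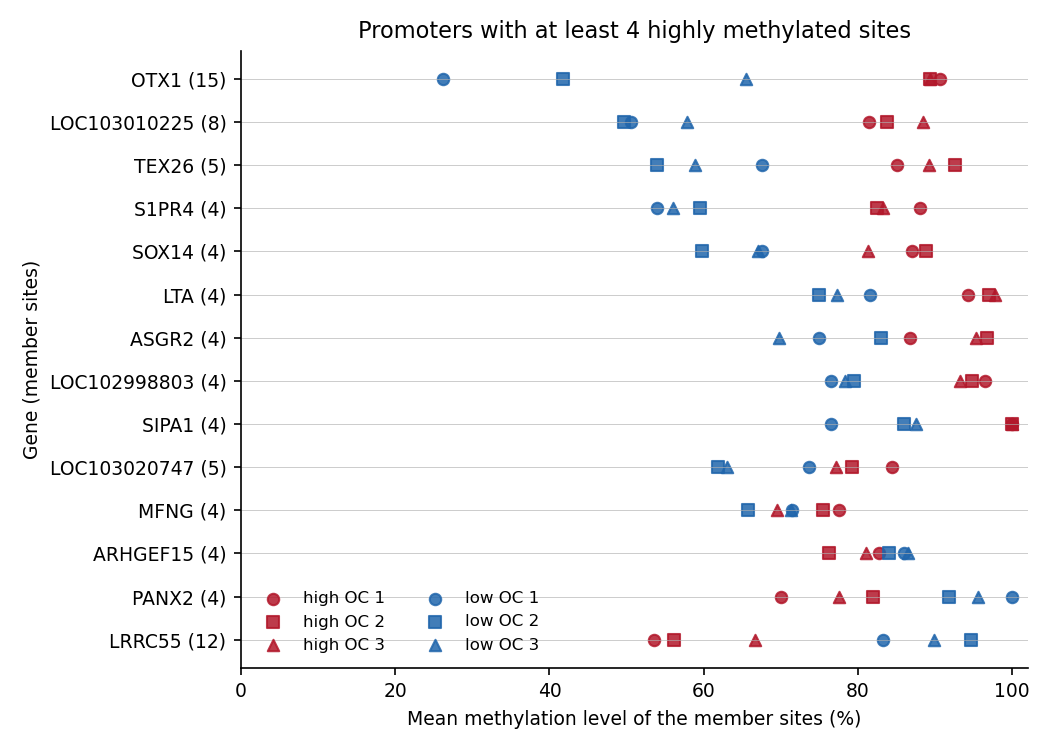
Mean methylation level in percent over the highly methylated listed promoter sites of the 14 genes with at least 4 of them, transfer RNA names left aside, in each sample. Numbers of sites stand in parentheses, red marks are high OC and blue marks low OC samples. OTX1 shows the widest spread among low OC samples, from 26.2% to 65.5%.

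Among single sites, SYNC, which encodes the muscle intermediate filament protein syncoilin, had the largest difference of all, at 4744967 on the plus strand of scaffold NW_006727242_1. Its high OC samples had 95%, 100% and 90% of 36 to 42 reads, and its low OC samples 35%, 25% and 33% of 16 to 34 reads. All 6 coverages at this site were even. SHANK1, a scaffold protein of synapses, had 89%, 100% and 94% against 78%, 22% and 31%, so that low OC replicate 1 stood near the high OC samples. SLC5A10, a sugar transporter of the kidney, was listed at 100% in all high OC samples against 50%, 38% and 83%, at 5 to 12 reads. TRABD had 86.7% ± 15.3 against 37.3% ± 14.2 (SD, 3 samples a group).

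Among lower sites, CACNA2D4, an auxiliary calcium channel subunit of the retina, had 25%, 55% and 54% in high OC and 100%, 100% and 89% in low OC skin. MYO15A, a myosin of the inner ear's hair bundles, had 50%, 70% and 30% against 100% in each low OC sample at 2596183 on the plus strand of scaffold NW_006726021_1. The cytosine on the other strand of the same CpG was also listed, and over both strands MYO15A averaged 54.5% ± 10.6 against 98.2% ± 3.18 (SD, 3 samples a group). HTR1D, a serotonin receptor, had 40%, 33% and 86% against 100% in each low OC sample, so that high OC replicate 3 stood apart from its group. SPNS2, the exporter of sphingosine 1-phosphate, had 45%, 17% and 71% against 92%, 94% and 91%. ASB16, of the ankyrin repeat and SOCS box family, had 37.3% ± 20.6 against 91.7% ± 14.4 (SD, 3 samples a group), and KLHL5, of the kelch family, had 42.7% ± 21.1 against 91.7% ± 7.64 (SD, 3 samples a group). These sites had 5 to 19 reads.

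Where every sample had at least 20 reads, single levels are most precise, provided that each read is a separate count. The following sites were picked from these after their values were seen. DRD3, a dopamine receptor, had 53%, 57% and 46% in the high OC samples and 93%, 92% and 79% in the low OC samples, with 23 to 39 reads. IGBP1, a regulatory partner of protein phosphatases, had 48%, 53% and 56% against 70%, 68% and 78% at start 84127 on scaffold NW_006728836_1, with 49 to 73 reads. Both were lower in every high OC sample than in any low OC sample. TPM2, the muscle protein beta-tropomyosin, was higher, with 82%, 77% and 74% against 64%, 45% and 35% at start 1049757 on scaffold NW_006734123_1. GPR133, an adhesion receptor, had 84%, 75% and 77% against 50% in each low OC sample, with 20 to 44 reads. The most deeply read site, in LOC103003067 with 270 to 398 reads, had 88%, 89% and 87% against 73%, 78% and 82%. That difference is near the authors' minimum. Groups did not overlap at any of these sites, as at 99.5% of all listed CpG sites.

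Of 1647 genes with a listed single-gene promoter site, 509 had a highly methylated one. Developmental transcription factors held 8 of these 509 genes, out of 50 of the list's 141 with any listed single-gene promoter site. Only higher sites were seen in 7 of the 8, beside 291 of all 509 genes, with a median of 22.3 points higher against 13.3 points over all 509. They were OTX1, SOX14, EMX1, HOXB6, PAX8, SOX10 and TBX2. EMX1, of the cerebral cortex, had 88%, 88% and 93% against 58%, 50% and 62% at a single site. SOX10, of neural crest and its melanocytes, had 88%, 100% and 100% against 73%, 56% and 56%. TBX1, of pharynx and heart development, was the lower one, at 57.7% ± 8.62 against 74.7% ± 5.13 (SD, 3 samples a group). Several list genes named here and below also had listed promoter sites under 60%, which these counts leave out. Such sites made up 6 of 7 in EMX1, 4 of 5 in TBX1 and in IL21R, and 3 of 4 in KCNA1 and in CLDN5.

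Ion channels and receptors of excitable cells held 11 of 30 genes with a listed promoter site, 5 with only higher sites, 5 with only lower and 1 with both, an even split by gene. By site, 9 were higher and 17 lower, 12 of the latter in LRRC55. KCNT1, a sodium-activated potassium channel, had 3 higher sites at 86.9% ± 11.7 against 53.7% ± 6.66 (SD, 3 samples a group). The 3 sites made only 1 set of distinct coverage, with 5 to 11 reads. GABRD, the delta subunit of GABA receptors, had 92%, 100% and 85% against 67%, 69% and 50%. CACNA1S, the calcium channel of skeletal muscle, and LRRC38, like LRRC55 a BK channel subunit, were higher as well, with 94.3% against 76.3% and 97.7% against 76.7%. KCNA1, a potassium channel of axons, was lower at 64.3% against 87.3%, and P2RX3, an ATP receptor of sensory neurons, at 77.0% against 95%. The muscle acetylcholine receptor subunits CHRND and CHRNG, a pair picked out after its values were seen and 12.7 kb apart on the same scaffold, went opposite ways, CHRND at 100% against 84.0% and CHRNG at 82.3% against 100%.

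Immune signalling genes held 4 of 7, all only higher. Besides LTA these were IL21R, a cytokine receptor of lymphocytes, with 85%, 68% and 83% against 47%, 43% and 50%, IL12RB1 with 94.3% against 82.0%, and IL17REL with 89.0% against 78.0%. Germline and meiosis genes held 3 of 6. SYCP1, of the synaptonemal complex, had 76%, 89% and 83% against 32%, 60% and 64%. FKBP6 was higher at 97.0% against 78.7%, and GTSF1, of the piRNA pathway, was lower at 57.3% against 82.0%. Lipid and energy genes held 4 of 12, with SLC2A4, the insulin-responsive glucose transporter, higher at 74.7% against 49.0%, PLIN4 higher at 100% against 85.7%, and IRS2 (74.0% against 87.7%) and LIPC (87.3% against 100%) lower. Of the list of DNA methylation and chromatin genes, which does not hold every such gene, 2 of 4 with a listed promoter site were present, ARID3A (71.7% against 100%) and another site of PRDM16 than the one at the threshold (86.0% against 100%), both lower. Outside that list, and named after their values were seen, the chromatin genes CARM1 (100% against 79.0%), NSD1 (80.8% against 60.8%), MTA2 (93.0% against 75%) and BRD1 (100% against 87.7%) were higher, and EHMT1 (83% against 100%) was lower.

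Several lists had no highly methylated promoter site. These were xenobiotic metabolism and dioxin receptor genes, with 1 gene with a listed promoter site of any level, steroid, thyroid and retinoid genes with 7, DNA repair and tumour suppression genes with 5, and imprinted genes with 2. Of marker genes for the cell types of skin, few had a listed single-gene promoter site of any level: 2 of 43 keratinocyte, 1 of 12 melanocyte, 0 of 13 fibroblast, 0 of 13 leukocyte and 1 of 6 adipocyte genes, and none of these was highly methylated. Of 3 endothelial genes with a listed promoter site CLDN5 had a highly methylated one, at 100% against 87.0%, and of 3 neural crest genes SOX10 did. The part of cell type makeup in the results was not tested.

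Further groups of genes were formed after their values were seen. The gel-forming mucins MUC5B, MUC5AC and MUC2, which lie within 132 kb on scaffold NW_006725687_1, were all lower. Between MUC5AC and MUC2 on that stretch, LOC103020747 had 3 higher and 2 lower sites. MUC5AC had 60%, 60.5% and 62.5% against 75%, 80% and 79.5% over 2 sites. MUC5B stood at 86.7% against 100% and MUC2 at 88.0% against 100%. Of 14 genes of sperm, meiosis and oocytes, 11 had only higher sites. MEI1 and MEI4, of meiotic recombination, had 94.8% against 70% and 83.7% against 49.0%, and TEKT2, a tektin of sperm tails, had 100% against 86.8%. ZAR1L, of oocytes, was lower at 70.3% ± 0.882 against 93.2% ± 7.20 (SD, 3 samples a group). Photoreceptor and retina genes were split, with 5 of 9 higher, among them OPN1LW, a cone opsin, at 100% against 83.7%. Hair cell genes were lower in 5 of 7, with MYO7A at 89.3% against 100% and LHFPL5 at 75.7% against 100%. Regulators of lymphoid and myeloid cells were higher in 10 of 16, with IKZF1 at 81.7% against 48.0%, while SPI1 (80% against 100%) and CIITA (64.3% against 87.0%) were lower. These lists were drawn from the sites themselves and their counts support nothing.

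Other listed sites of the same genes are from the same contrast and are given as counts. Among the 106 genes that also had a listed promoter site under 60%, 96 had highly methylated sites of a single direction. In 69 of these 96 all the further promoter sites had that direction, 58 higher and 11 lower. In 19 all had the opposite one and in 8 they were mixed. Of all single-gene promoter sites under 60%, 68% were higher, so agreement among genes with higher sites is partly given by that share. Of 80 genes with only higher promoter sites and a listed exon site, 44 had mostly higher and 29 mostly lower exon sites, and of 42 genes with only lower promoter sites and a listed exon site 16 had mostly lower and 23 mostly higher ones. For introns the counts were 48 higher and 33 lower of 89, and 24 lower and 23 higher of 54. Over all listed sites outside promoters, 53.5% of exon sites and 49.5% of intron sites outside exons were higher. Outside CpG context, 10 CHG and 24 CHH listed sites lay in these promoters, at median levels of 14.8% and 7.33%. The CHG site with the largest difference was in ASB10, of the ankyrin repeat and SOCS box family, with 19%, 42% and 71% in high OC against 100%, 93% and 100% in low OC skin.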

How the data were processed

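Skin DNA of the 6 samples was cut with MspI, treated with bisulfite, amplified and read on a HiSeq instrument, per the labels' protocols. The submitters' processing notes name Bismark; version, genome build, annotation and filters are not stated in the sources used here. The authors' deposited tables give each site's methylation level in a sample as a fraction of reads with 2 decimals, printed here in percent. The authors also deposited the coverage as a raw count of reads covering each site, at least 5 in every sample of a listed site. The difference of group means and an unadjusted p-value in the deposited tables define the listing (at least 10 points, p at most 0.05). Starts are printed as deposited.

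Group levels are means ± SD of 3 samples. The members and lists were chosen with earlier results of these data known. Genes named were those with at least 4 sites, the 10 largest non-overlapping differences per direction, 1 per gene (LOC and transfer RNA names counted but described only with at least 4 sites), and the first 20 list genes by difference; others were named after their values were seen. Of the 509 names, 367 (72.1%) matched a symbol in the fin whale RefSeq table (assembly mBalPhy2.hap1.1), all protein-coding; the scaffolds are not those of that assembly. Promoter sequences were not used here. Coverage per sample and levels at unselected sites were compared between groups with exact permutation tests, two-sided. Sequence features were not computed. Wilson intervals at 95% and the limit from a level of 0 (3 reads) cover counting error only and take each read as a separate count. The selection and the test were checked on simulated data. Alternatives changed the threshold, weighting, coverage minimum, list, unit of counting and samples; leaving out transfer RNA names, sites with only even coverages and repeats of a coverage set was added after seeing the data, as was the comparison of unselected sites. Python 3.11.15, numpy 2.4.6, pandas 2.3.3, scipy 1.17.1 and matplotlib 3.10.9 were used.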

Additional observations from a re-analysis of the deposited data

How the results depend on the processing

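The share of higher sites stayed above 50% under every alternative run. It was 67.6% of 244 sites (179 genes) with at least 10 reads in each sample, 66.0% of 53 sites (43 genes) with at least 20, and 66.7% of 66 sites (46 genes) of the authors' strongly different class, whose median absolute difference was 41.2 points. The mean level in high OC minus low OC, 5.78 points, was 8.72, 8.36 and 15.0 points in these subsets, 6.60 and 4.19 points with thresholds of 50% and 70%, and 5.03 points with 1 site per gene. With a sample left out in turn it ran from 3.46 to 7.65 points, the share of higher sites from 57.6% to 63.8%, the number of sites from 701 to 743 and that of genes from 498 to 518. Each of these alternatives changes which sites enter, while the authors' listing still rests on all 6 samples. The cause was not tested further. Of 103 values computed, 22 were counted as moved and 81 as unchanged. Unchanged does not mean a shift smaller than the spread, since no spread was computed for the numbers of sites and genes. For coverage and for unselected sites only a change of sign was checked, so no shift in size could count as moved. Values counted as unchanged still shifted. The number of sites went from 722 to 851 with the threshold of 50%. The difference in the level of unselected sites went from 1.12 to 3.09 points with at least 10 reads in each sample. The level of unselected sites differed by 0.083 to 1.98 points with a sample left out, and the coverage medians by 0 to 1 reads. No paired analysis was possible because the labels give the groups no shared replicate numbers. Promoter sequence features were not run, since no promoter sequences were used here. Depth limits single levels: most sites have fewer than 10 reads in at least 1 sample.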
